A study of Mus musculus with 6 samples.

Results

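The matrilins and the cartilage matrix proteins around them were compared between hindlimb buds of Pitx1 knockout and wild-type mouse embryos. The set holds 10 genes, chosen by symbol: 4 matrilins (Matn1, Matn2, Matn3 and Matn4), the type II collagen gene Col2a1, the type IX collagen genes Col9a1, Col9a2 and Col9a3, the proteoglycan gene Acan and the link protein gene Hapln1. All 16 probes that carry these symbols in the platform annotation were taken, of 25697 probes in all. Of these, 9 probes of 6 genes were bright enough to be tested, and 7 probes were not. Col2a1 and Col9a2 were well above background on all 6 arrays, Acan was near it, and the probes of 4 genes, Matn2, Matn3, Col9a3 and Hapln1, did not exceed it on any array.

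The 3 knockout samples carry the genotype PITX1-/- and the 3 wild-type samples PITX1+/+. All 6 are hindlimb buds at E12.5 in the strain labelled SV129, from matings of Pitx1+/- mice, with genotypes read by PCR on tail DNA. Biotinylated cRNA from each sample was hybridised to 1 Illumina bead array, which gives each probe an intensity in arbitrary units that can lie below 0 after background subtraction. The labels give neither the deleted part of Pitx1 nor the number of embryos behind a sample, so the p-values measure only the spread between these samples.

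Cartilage of the limb skeleton forms from condensations of mesenchyme, whose cells begin to secrete a matrix of collagen fibrils and proteoglycan. Type II collagen makes up the fibrils, and type IX collagen, a trimer of the products of Col9a1, Col9a2 and Col9a3, sits on their surface. Aggrecan, encoded by Acan, binds hyaluronan with the help of the link protein Hapln1 and holds water in the tissue. Matrilins are oligomeric adaptor proteins with von Willebrand factor A domains that connect collagen fibrils with proteoglycans. Matrilin 1 and matrilin 3 are best known from cartilage, while matrilin 2 and matrilin 4 also occur in other connective tissues.

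The background threshold was 14.3 units, which 13535 to 13559 probes exceeded on any 1 array. The test covered the 13720 probes that exceeded it on 3 or more of the 6 arrays. Pitx1 itself gave 78.3, 75.2 and 76.1 units in knockout replicates 1, 2 and 3, against 154, 125 and 140 units in wild type. Its values did not overlap between genotypes (log2 fold change -0.51 ± 0.09, given here and below with its SE, and adjusted p = 0.038 from limma after Benjamini-Hochberg adjustment across every probe tested). On the first principal component, knockout replicate 3 lay away from the rest (22.3, against -8.87 to 1.39 for the other 5, with 44.2% of the variance). Member results and list counts that rest on it are given with and without it. Values of single list genes that did not pass are given with all 6 arrays only. Of all probes tested, 30 passed an adjusted p of 0.05 (0.219%), 21 of them lower in knockout (0.153%) and 9 higher (0.0656%). That count was 3, 4 and 0 without wild-type replicates 1, 2 and 3 (718, 913 and 710 at an unadjusted p under 0.05), and 91, 48 and 32 without knockout replicates 1, 2 and 3.

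Of the members, 1 probe of Matn4 passed the test, and it was lower in knockout. At this probe, above background on every array, the knockout mean was 29.1% of the wild-type mean. Across the 2 probes of Col2a1 it was 77.4% and 81.3%, and for Col9a2 it was 66.5%. Of the 9 probes tested, 1 fell, 0 rose and 8 missed the adjusted threshold. At an unadjusted p under 0.05, 5 of the 9 were lower in knockout and 0 were higher. Of all probes tested, 4.15% were lower at that level. The 5 were every Matn4 probe and the single tested probes of Matn1 and Col9a2, so they do not stand for 5 genes. The median log2 fold change was -0.46 over the 9 probes and 0.01 over all probes tested. That median of the members is the value of the Matn1 probe, and each Matn4 probe counts separately in it.

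**Figure D1:**
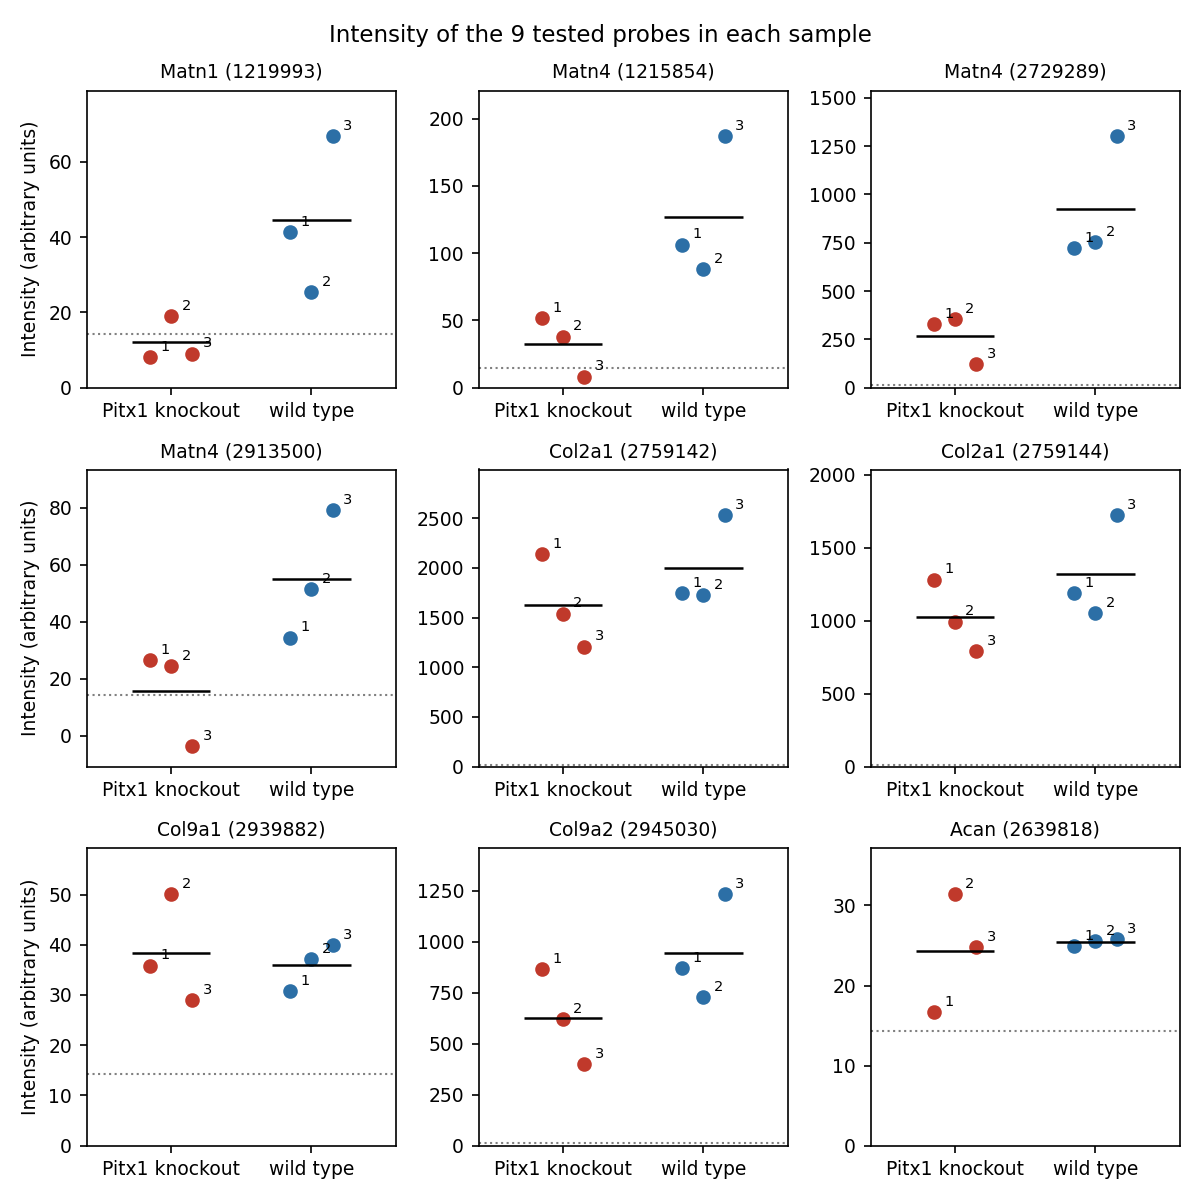
Background-subtracted intensity (linear axes, arbitrary units) of the 9 tested probes, with a point for each of the 3 Pitx1 knockout samples (red) and 3 wild-type samples (blue), replicate numbers beside the points and a bar at each mean (n = 3). The dotted line is the background threshold of 14.3 units. The 4 matrilin probes have no overlap between genotypes, while the probes of Col2a1, Col9a1, Col9a2 and Acan overlap.

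Matn4, which encodes matrilin 4, was measured by 3 probes, and each of them was lower on every knockout array than on any wild-type array. Its brightest probe, ILMN_2729289, gave 331, 356 and 123 units in knockout replicates 1, 2 and 3, against 722, 751 and 1303 units in wild type. The mean was 269.6 ± 128 units in knockout and 926 ± 327 units in wild type (SD, n = 3 each). Knockout replicate 3 was the lowest and wild-type replicate 3 the highest, and the groups stayed far apart without either. The log2 fold change of this probe was -1.58 ± 0.26 (SE; 95% interval -2.13 to -1.03; adjusted p = 0.023, limma), the 16th smallest p of all probes tested. The untransformed mean of wild type was 3.43 times that of knockout, larger than this fold change, because the offset of 50 units added before taking logarithms draws fold changes toward 0.

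The other 2 probes of Matn4 were dimmer and ran the same way. ILMN_1215854 gave 51.9, 37.9 and 8.15 units in knockout, against 106, 88.0 and 187 units in wild type, and the knockout signal was above background on 2 of 3 arrays. Its log2 fold change, -0.92 ± 0.17, narrowly missed the threshold (adjusted p = 0.054, limma). ILMN_2913500 gave 26.5, 24.3 and -3.63 units in knockout, against 34.4, 51.5 and 79.1 units in wild type, and its log2 fold change was -0.53 ± 0.15 (adjusted p = 0.26). The untransformed knockout mean was 25.7% of wild type for ILMN_1215854 and 28.6% for ILMN_2913500, but each rests on a knockout array below background, so these shares are poorly measured. The log2 fold changes of both depended on the offset. That of ILMN_1215854 was -1.23 with an offset of 16 units and -1.99 with values floored at background, and that of ILMN_2913500 was -0.81 and -1.31.

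The call for ILMN_2729289 depended on the wild-type arrays and on the background step. Without wild-type replicate 1, 2 or 3 its adjusted p was 0.11, 0.078 and 0.13 (limma), at log2 fold changes of -1.72, -1.70 and -1.33. With an offset of 16 units the adjusted p was 0.074 at a log2 fold change of -1.70, and with values floored at background it was 0.40 at -1.87. The fold change was thus of similar size where the call was lost. Without knockout replicates 1, 2 and 3 it was 0.015, 0.034 and 0.0091, so the call held without the array that stood apart, at a log2 fold change of -1.22.

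Matn1, which encodes the cartilage matrilin first described as cartilage matrix protein, was measured by 1 probe. ILMN_1219993 gave 8.11, 19.1 and 9.02 units in knockout replicates 1, 2 and 3, against 41.3, 25.5 and 66.9 units in wild type. The genotypes did not overlap, and only 1 of the 3 knockout arrays was above background, so the knockout level is poorly measured, and the probe entered the test mainly through its wild-type arrays. The log2 fold change was -0.46 ± 0.12 (SE; 95% interval -0.72 to -0.20) and did not pass (adjusted p = 0.22, limma). It was -0.69 with an offset of 16 units and -1.39 with values floored at background (adjusted p = 0.22 and 0.42), so its size is set largely by the treatment of low values. Together with Matn4, 4 of the 9 tested probes were lower on every knockout array than on any wild-type array. Of all probes tested, 6.58% were. These 4 probes stand for Matn4 and Matn1 only, and the Matn4 probes ran closely together (Pearson correlations of 0.948 to 0.980 over 6 arrays). Since the filter kept Matn1 mainly through its wild-type arrays, its lack of overlap adds no separate support.

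The single probes of Matn2 and Matn3 were not above background on any array. Matn2, a matrilin of many connective tissues, lay between -2.89 and 1.88 units in knockout and between 0.311 and 2.37 units in wild type. Matn3, the matrilin most restricted to cartilage, lay between -12.4 and -0.271 units in knockout and between -4.72 and 1.44 units in wild type. No fold change is given for either gene, and a signal this low does not show that the transcripts were absent.

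Upstream sequences are shown for Matn4 and Matn1, whose probes were lower on every knockout array, and for Col9a2, which overlapped between genotypes. Each is the run of 250 bases before the annotated start, 5′ to 3′ on the gene's strand, from RefSeq (GRCm38.p6), and capitals mark the E-box CAGCTG. The windows are chr2:164405161-164405410 (minus strand) for Matn4, chr4:130944135-130944384 (plus strand) for Matn1 and chr4:121039316-121039565 (plus strand) for Col9a2.
Matn4: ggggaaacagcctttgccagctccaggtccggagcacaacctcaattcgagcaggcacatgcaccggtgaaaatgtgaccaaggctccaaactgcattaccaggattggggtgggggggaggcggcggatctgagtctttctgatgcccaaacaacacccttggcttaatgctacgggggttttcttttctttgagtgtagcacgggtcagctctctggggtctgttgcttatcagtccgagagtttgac
Matn1: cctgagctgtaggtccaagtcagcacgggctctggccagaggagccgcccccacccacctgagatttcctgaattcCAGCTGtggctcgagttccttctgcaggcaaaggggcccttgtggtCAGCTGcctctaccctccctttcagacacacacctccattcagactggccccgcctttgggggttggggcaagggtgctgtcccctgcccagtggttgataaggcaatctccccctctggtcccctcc
Col9a2: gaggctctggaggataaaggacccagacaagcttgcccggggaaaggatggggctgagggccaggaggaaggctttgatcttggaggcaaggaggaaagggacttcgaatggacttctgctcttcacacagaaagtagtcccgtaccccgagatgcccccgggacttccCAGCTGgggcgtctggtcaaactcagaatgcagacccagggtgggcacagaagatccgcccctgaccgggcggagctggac
Matn1 holds CAGCTG at 174 and 128 bases before the start and Col9a2 at 81 bases, while the Matn4 window holds none. The table gives another annotated start for Matn4, whose window (chr2:164404819-164405068, minus strand) is not shown and holds none either. In all, 9 windows were found for 7 of the 10 genes. Of these, 3 hold CAGCTG, the third being that of Acan, at 179 bases before the start, compared with 13% of all 32851 windows. The bicoid-type homeodomain motif TAATCC, the class that Pitx proteins bind, was in 0 of the 9 windows and in 6.25% of all windows, on either strand. The SOX core ACAAT was in 1 of the 9, that of Hapln1, and in 27.7% of all windows. CAGCTG reads the same on both strands, and the 3 motifs did not overlap in these windows.

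Col2a1, the main fibrillar collagen of cartilage, overlapped between genotypes at both of its probes. ILMN_2759142 gave 2139, 1539 and 1207 units in knockout replicates 1, 2 and 3, against 1747, 1726 and 2535 units in wild type. The mean was 1628 ± 472 units in knockout and 2003 ± 461 units in wild type (SD, n = 3 each). Knockout replicate 1 lay above wild-type replicates 1 and 2. The log2 fold change was -0.30 ± 0.18 (SE), with a 95% interval of -0.68 to 0.08 (adjusted p = 0.69, limma). ILMN_2759144 gave 1281, 993 and 791 units in knockout, against 1187, 1049 and 1725 units in wild type. Its log2 fold change was -0.34 ± 0.17 (SE; 95% interval -0.71 to 0.03; adjusted p = 0.64). The intervals of both probes thus reach from little difference to a knockout level well below wild type. Leaving out knockout replicate 3 or wild-type replicate 3 moved both values by more than 1.5 times. Without knockout replicate 1 they were -0.51 and -0.51 for ILMN_2759142 and ILMN_2759144, without knockout replicate 3 -0.11 and -0.18, and without wild-type replicate 3 -0.13 and -0.14.

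Among the type IX collagen chains, Col9a2 ran in nearly the same order over the arrays as Col2a1. Its probe ILMN_2945030 gave 865, 622 and 399 units in knockout replicates 1, 2 and 3, against 872, 730 and 1236 units in wild type. Knockout replicate 1 lay within the range of wild type, and the other 2 knockout arrays lay below it. The log2 fold change was -0.56 ± 0.21 (SE; 95% interval -1.01 to -0.11; adjusted p = 0.51, limma). Without knockout replicate 3 the log2 fold change was -0.30, and without wild-type replicate 3 it was -0.37. Each of these arrays thus moved the value by more than 1.5 times.

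Col9a1 was measured above background by 1 of its 3 probes. ILMN_2939882 gave 35.9, 50.1 and 28.9 units in knockout, against 30.8, 37.1 and 39.9 units in wild type, and the log2 fold change was 0.03 ± 0.10 (SE; 95% interval -0.18 to 0.24; adjusted p = 0.95, limma). The knockout values spread to both sides of wild type, and the sign turned when single arrays were left out. The probes ILMN_2706692 and ILMN_2706693 were above background on wild-type replicate 3 only, at 25.9 and 22.9 units. On that array they were highest, as were all 9 tested member probes among the wild-type arrays. The single probe of Col9a3 lay between -14.2 and -8.44 units in knockout and at -13.5 units or slightly above in wild type, below background on all 6 arrays.

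Acan, the core protein of the large cartilage proteoglycan, was near background. Its brighter probe ILMN_2639818 gave 16.7, 31.5 and 24.8 units in knockout, against 24.9, 25.6 and 25.8 units in wild type, and the log2 fold change was -0.02 ± 0.09 (SE; 95% interval -0.22 to 0.18; adjusted p = 0.97, limma). The knockout values lay on both sides of a narrow wild-type range. Its other probe, ILMN_2645654, was below 0 on all 6 arrays. Hapln1 lay between 2.94 and 7.78 units in knockout and between -0.927 and 10.5 units in wild type, below background throughout.

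**Figure D2:**
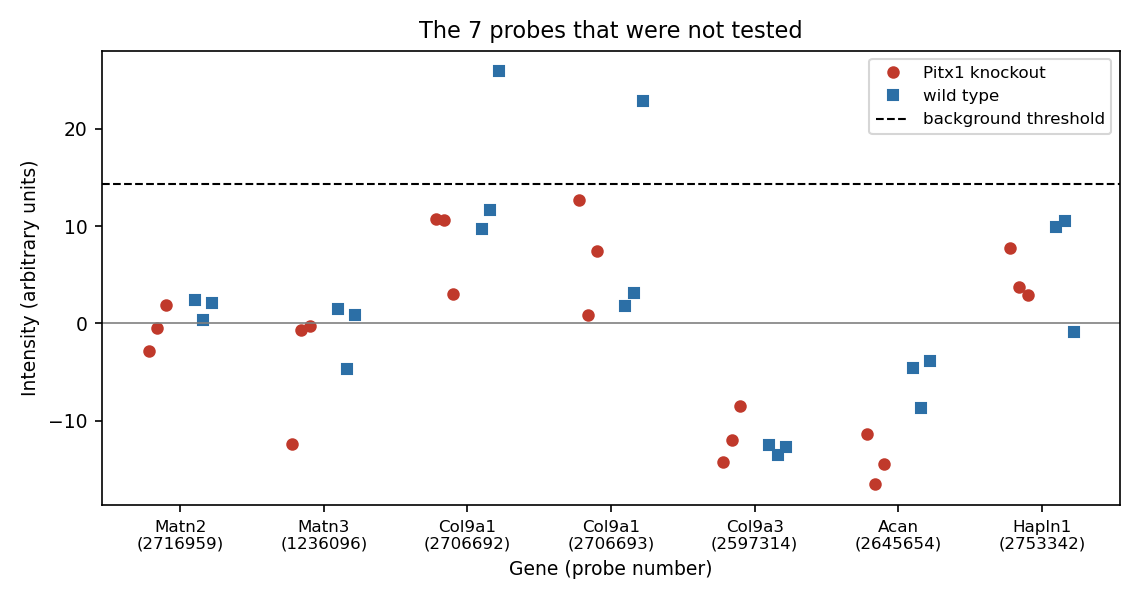
Background-subtracted intensity (arbitrary units) of the 7 member probes that were not tested, with a point for each Pitx1 knockout sample (red circles) and each wild-type sample (blue squares). Of the 42 values, 2 lie above the dashed background threshold of 14.3 units, both from Col9a1 probes on wild-type replicate 3, and 19 lie below 0.

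**Figure D3:**
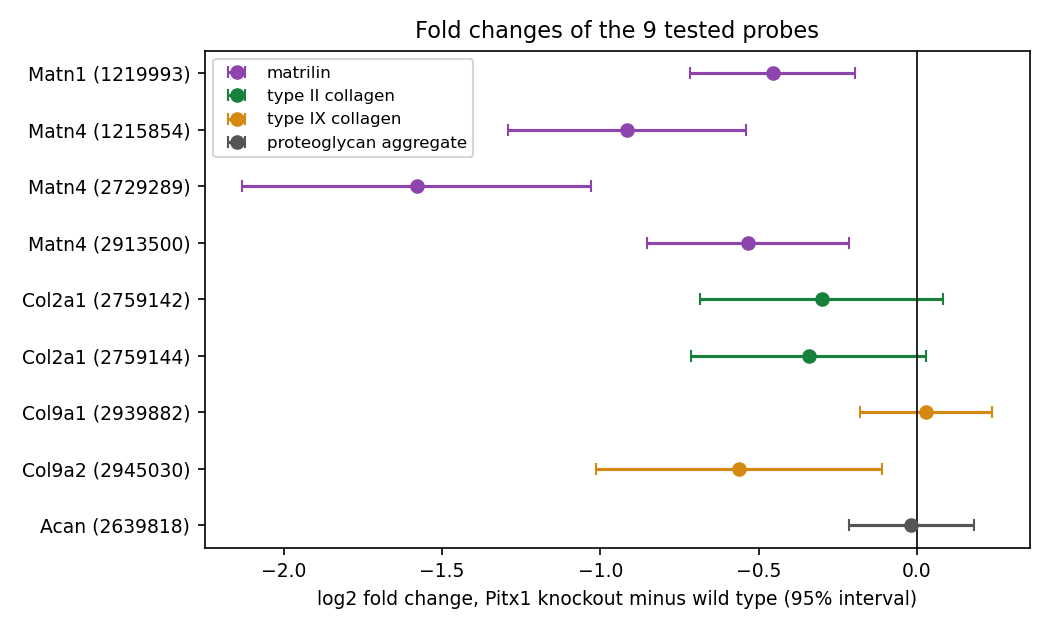
Log2 fold change (Pitx1 knockout minus wild type) of the 9 tested probes with its 95% interval from limma, coloured by the role of the protein. The intervals of the 4 matrilin probes and of Col9a2 lie below 0, and those of Col2a1, Col9a1 and Acan include 0. Only Matn4 probe ILMN_2729289 passed after adjustment over all probes.

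The fold changes of the members were then set against that of Col2a1 on the same arrays, which asks whether a gene moved by more or less than the main collagen. For this the log2 value of the brightest Col2a1 probe was subtracted from that of each other gene's brightest probe on every array. Relative to Col2a1 and to the wild-type mean, Matn4 lay at -1.37, -0.83 and -1.63 in knockout replicates 1, 2 and 3, against -0.11, -0.05 and 0.16 in wild type. The groups did not overlap, and the difference of -1.28 kept a range of -1.50 to -1.10 when any 1 array was left out. Averaged over all tested probes of each gene it was -0.69, still with no overlap. In an exact permutation test (two-sided) p was 0.1, the smallest that 3 samples against 3 allow, and 0.25 after adjustment over the 5 genes compared.

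In knockout replicate 1 the Col2a1 probes ILMN_2759142 and ILMN_2759144 stood at 0.11 and -0.01 from the wild-type mean on the log2 scale, while the brightest Matn4 probe was at -1.26. Col9a2 relative to Col2a1 lay at -0.20, -0.18 and -0.41 in knockout, against 0.09, -0.13 and 0.04 in wild type. The difference was -0.26 with no overlap, though replicate 2 of the 2 genotypes lay close together (-0.18 and -0.13). Its exact permutation p was 0.1, and 0.25 after adjustment over the 5 genes compared. Unadjusted, it was 0.2 when any 1 knockout array was left out. Matn1, Col9a1 and Acan overlapped between genotypes on this measure, with differences of -0.15, 0.33 and 0.28 (exact permutation p = 0.9, 0.3 and 0.4). The value for Matn1 depended on the offset. It was -0.38 with an offset of 16 units (exact permutation p = 0.3), -1.08 with values floored at background (exact permutation p = 0.1, the smallest possible) and 0.09 without knockout replicate 1. The value for Acan was 0.28 with an offset of 16 units and 0.20 with the floor.

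**Figure D4:**
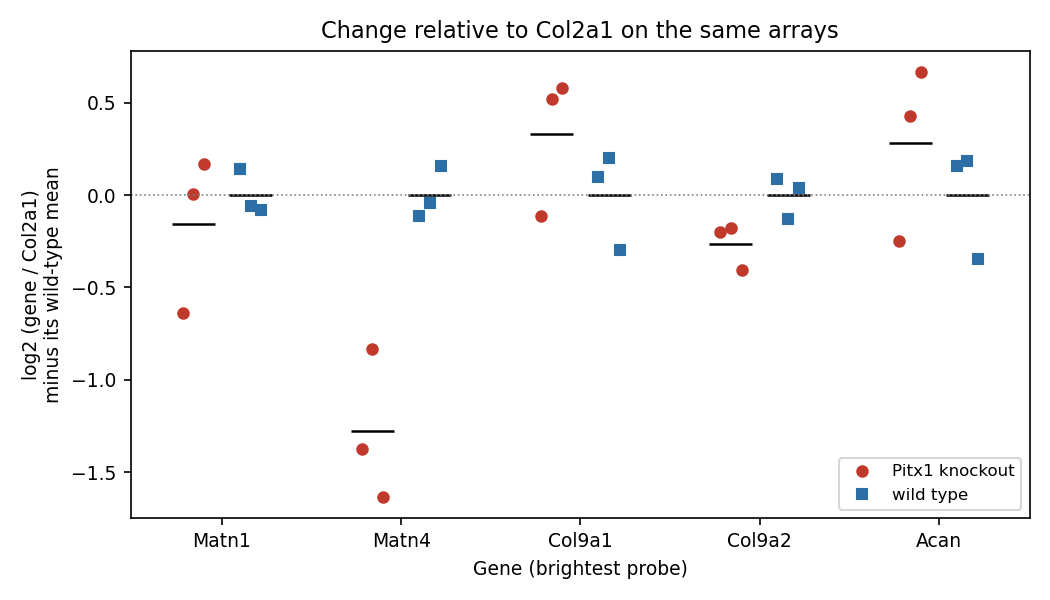
Log2 ratio of each gene to Col2a1 on the same array, minus its wild-type mean, for the 3 Pitx1 knockout samples (red circles) and 3 wild-type samples (blue squares), with bars at the means (n = 3). Matn4 is lower in all 3 knockout samples (-1.63 to -0.83, against -0.11 to 0.16 in wild type), and Col9a2 by a smaller amount, while Matn1, Col9a1 and Acan overlap at the offset of 50 units used here.

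Within a genotype, the same arrays were often the extremes. Wild-type replicate 3 had the highest wild-type value at 9 of the 9 tested probes, and knockout replicate 3 had the lowest knockout value at 7 of the 9. The exceptions were Matn1, whose lowest knockout value was in replicate 1, and Acan, likewise lowest in replicate 1. Acan's wild-type values were nearly equal (25.8 units in replicate 3 against 25.6 in replicate 2), so its order there carries little. Without knockout replicate 3 the log2 fold changes were -0.43 for Matn1 and -0.74 and -0.37 for the dimmer Matn4 probes ILMN_1215854 and ILMN_2913500. In RNA of whole limb buds, fewer cartilage cells and less RNA per cell cannot be told apart.

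Other genes of cartilage were taken from lists drawn up by function, with earlier results of these data known. They had more log2 fold changes below 0 than above, and none passed the test. Of 9 other cartilage matrix and chondrocyte genes tested (of 20 listed), 0 passed in limma (0.22% of all 9539 genes tested were lower and 0.0524% higher) and 3 were lower and 0 higher at an unadjusted p under 0.05 (4.85% and 3.66% of all genes). The number at that unadjusted level, 3, was 2 without knockout replicate 3 and 1 without wild-type replicate 3. A log2 fold change below 0 was seen for 8 of the 9, with a median of -0.13, while 50.2% of all genes did. Pcolce2, which encodes an enhancer of procollagen C-proteinase, averaged 219 ± 41.1 units in knockout and 321 ± 30.2 units in wild type (SD, n = 3 each), and its log2 fold change was -0.44 ± 0.11 (adjusted p = 0.19). Wwp2, a ubiquitin ligase whose gene hosts the cartilage microRNA Mir140, averaged 925 ± 240 units in knockout and 1431 ± 447 units in wild type (-0.58 ± 0.19 on the log2 scale, adjusted p = 0.42). Mia, a small protein secreted by chondrocytes, gave -0.29 ± 0.12 (adjusted p = 0.56). Col11a1, Cnmd, Chad, Epyc, Ucma, Col10a1 and Scrg1 of this list had no probe bright enough to test.

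Of 12 chondrogenic regulators tested (of 16 listed), 0 passed in limma, and the median log2 fold change was -0.10. An unadjusted p under 0.05 was reached by 3 that were lower and 1 that was higher (4.85% and 3.66% of all genes). Without knockout replicate 3, 1 regulator reached that unadjusted level, and without wild-type replicate 3, 0 did. The lowest p-values belonged to Nfatc1 (-0.35 ± 0.12 SE, adjusted p = 0.44), the joint signal Gdf5 (-0.38 ± 0.14, adjusted p = 0.51) and Nkx3-2, a homeodomain factor of early chondrogenesis (-0.35 ± 0.14, adjusted p = 0.56). The 1 that was higher, named after its values were seen, was Trps1, a GATA-type repressor, at 0.24 ± 0.11 (adjusted p = 0.62). Of 20 genes that process proteoglycan and collagen (of 26 listed), 0 passed, with a median of -0.03. At that unadjusted level 2 of the 20 were lower and 0 higher (4.85% and 3.66% of all genes). The lower ones were Papss2, which makes the sulfate donor for proteoglycans, at 23.2 ± 6.75 units in knockout and 49.9 ± 19.3 units in wild type, and the chondroitin sulfotransferase Chst3, at 211 ± 47.0 units in knockout and 279 ± 6.66 units in wild type. Their adjusted p-values were 0.42 and 0.47 (limma). Bmp1, the procollagen C-proteinase, gave -0.19 ± 0.09 (adjusted p = 0.62). Of 6 perichondrium and bone genes tested (of 12 listed), 0 passed, with a median of -0.17. At that unadjusted level 2 of the 6 were lower (4.85% of all genes). Without knockout replicate 3, 1 of these genes reached that level. Mef2c, a transcription factor of muscle and of chondrocyte hypertrophy, gave -0.52 ± 0.15 (adjusted p = 0.32), Thbs2 gave -0.24 ± 0.11 (adjusted p = 0.61) and Wif1 gave -0.13 ± 0.11 (adjusted p = 0.77).

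Markers of other tissues were examined on the same arrays, and skeletal muscle held most of their calls. These lists too were drawn up with earlier results of these data known. Of 19 skeletal muscle genes tested (of 24 listed, 14 of the 19 above background on all arrays), 8 fell and 0 rose. Over all genes tested, 0.22% were lower and 0.0524% higher at that adjusted level. At an unadjusted p under 0.05, 18 of the 19 were lower and 0 higher, against 4.85% and 3.66% of all genes. The 19 had a median log2 fold change of -1.01. Their summed intensity was 9051, 6954 and 2672 units in knockout replicates 1, 2 and 3, against 20182, 16187 and 16494 units in wild type. The 8 that fell were Myh8, Acta1, Myl4, Chrng, Mylpf, Tnnt1, Tnnc2 and Tnnc1, sarcomere genes except for the acetylcholine receptor subunit Chrng, with log2 fold changes from -2.05 to -1.01. Without wild-type replicates 1, 2 and 3 the count of muscle calls was 0, 1 and 0 (17 each at an unadjusted p under 0.05), and without knockout replicates 1, 2 and 3 it was 14, 9 and 10. It was 1 with an offset of 16 units and 0 with values floored at background (18 at an unadjusted p under 0.05 in both). The muscle regulators Pax3, Pax7, Myf5 and Myf6 had no probe bright enough to test. Myod1 and Myog, named after their values were seen, gave -0.09 ± 0.14 and -0.63 ± 0.14 (adjusted p = 0.89 and 0.12, limma).

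Of 16 tendon and connective tissue genes tested (of 19 listed, 13 above background on all arrays), 1 fell and 0 rose. Over all genes tested, 0.22% were lower and 0.0524% higher. At an unadjusted p under 0.05, 5 of the 16 were lower and 0 higher (4.85% and 3.66% of all genes). Summed intensities were 8646 to 11217 units in knockout and 11046 to 12783 units in wild type. The gene that fell was Tnc, the matrix glycoprotein tenascin C, at -0.74 ± 0.13 on the log2 scale (adjusted p = 0.038, limma). Decorin (Dcn) and the tendon factor Mkx gave -0.80 ± 0.16 and -0.52 ± 0.11 (adjusted p = 0.076 and 0.12). A log2 fold change below 0 was seen for 11 of the 16, with a median of -0.20. Among those above 0, and named after their values were seen, Scx, a transcription factor of tendon progenitors, gave 0.07, and the connective tissue factors Osr1 and Osr2 gave 0.05 each (adjusted p of 0.89 to 0.95, limma). Of 9 erythroid genes tested (of 12 listed, 8 above background on all arrays), 1 rose and 0 fell. At an unadjusted p under 0.05, 6 of the 9 were higher and 0 lower (3.66% and 4.85% of all genes). Their median log2 fold change was 0.41. Summed intensities were 197654 to 211059 units in knockout and 180902 to 192654 units in wild type. Most of these sums came from globin genes, named after their values were seen. Hbb-bh1 gave 0.54, Hba-x 0.26, Hbb-y 0.02 and Hba-a1 -0.06 on the log2 scale. The gene that rose was Nfe2, an erythroid transcription factor, at 0.63 ± 0.12 (SE, adjusted p = 0.046). Klf1 and Alas2 gave 0.51 ± 0.10 and 0.46 ± 0.10 (adjusted p = 0.076 and 0.12). Knockout replicate 3 was lowest for muscle, tendon and most cartilage members alike, and wild-type replicate 3, highest for all 9 member probes tested, was not highest for muscle or tendon. The Tnc call was lost without any 1 wild-type array (adjusted p of 0.17 to 0.23, limma), and the Nfe2 call without any array but knockout replicate 1 (0.092 to 0.32). What part these other tissues have in the Matn4 values was not tested.

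**Figure D5:**
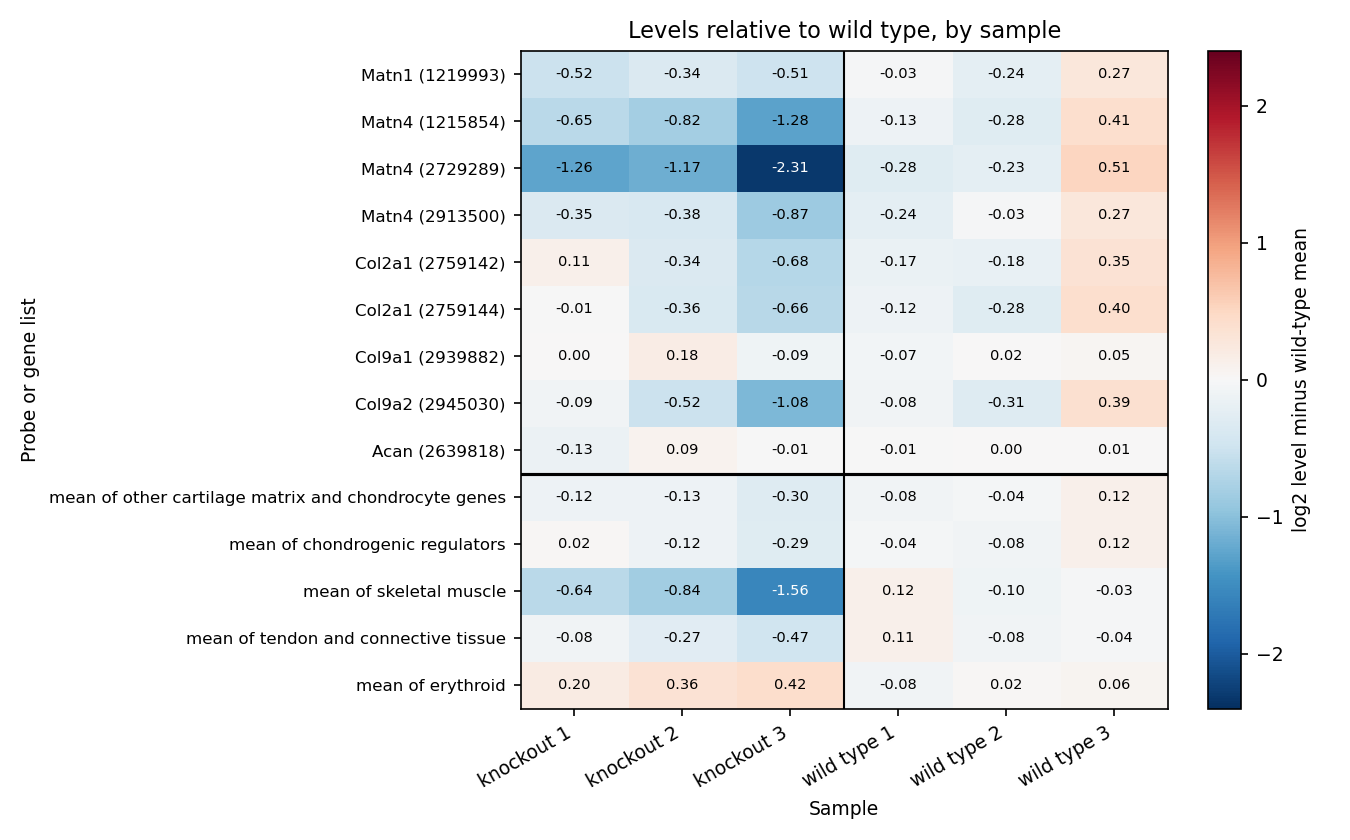
Log2 level of each tested member probe (upper rows) and mean log2 level of 5 gene lists (lower rows) on every array, minus the wild-type mean, with Pitx1 knockout samples on the left and wild-type samples on the right. Matn4 probe ILMN_2729289 and the muscle list are lowest in knockout replicate 3 (-2.31 and -1.56), and Col2a1 probe ILMN_2759142 stands at 0.11 in knockout replicate 1.

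Patterns over the 6 arrays were compared among the 9539 genes with a tested probe, with the members left out of the search. The genes most like Matn4 were Tmed8, Ncstn, Slc1a3, Mmd and Mier2, with Pearson correlations of 0.988 to 0.997. These genes are not cartilage markers, and none passed the test (log2 fold changes of -0.31 to -0.21, adjusted p of 0.35 to 0.62, limma). Ncstn, which encodes the gamma-secretase subunit nicastrin, gave 813, 832 and 703 units in knockout replicates 1, 2 and 3, against 968, 945 and 1049 units in wild type. The genes most like Col2a1 were Dpysl3, Vasn, Relb, Lbp and Olfr725 (0.985 to 0.994), and their log2 fold changes lay between -0.17 and -0.04 (adjusted p of 0.74 to 0.91). Vasn, a membrane protein that binds TGF-beta, gave 1421, 1206 and 1068 units in knockout, against 1332, 1257 and 1572 units in wild type. With 6 arrays that share 1 quantile-like scale, correlations this high describe these arrays only.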

How the data were processed

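Hindlimb bud RNA of 3 Pitx1 knockout and 3 wild-type samples was measured on Illumina bead arrays. The deposited value table holds linear intensities, which the authors had background-subtracted to judge by the 27.9% of values below 0. Its sorted columns differ by at most 1.09 units, as quantile normalization leaves them, although no label used here records the step, and the scanner software is not given in the sources used here. A further deposited table, of signals with detection p-values, was left out, since its 12 columns match no single sample's labels.

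Background correction by normexp used an offset of 50 (limma 3.58.1 in R 4.3.3), followed by log2. Background was 1.64 times the root mean square of the values below 0 (8.71 units). Probes above it on at least 3 arrays were tested with lmFit and eBayes (knockout minus wild type, two-sided, 9.6 prior degrees of freedom), with Benjamini-Hochberg adjustment over all 13720. The brightest probe stood for a gene outside the member set. The fit was tested on simulated data, and alternatives covered the background step, normalization, filter, replicate block, variance model, array weights and each array left out. The number of arrays limits the precision.

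Symbols came from GEO's platform annotation, updated by Entrez identifier to GRCm38.p6 (23962 of 25697 probes matched, 23978 have 1 symbol, 1719 none). Probe sequences were not used. Arrays correlated at 0.989 to 0.996 with one another, and none was identical to another. The members and lists were chosen with earlier results of these data known. Named beside the members are Pitx1, genes past the threshold in each list and otherwise the 3 with the smallest p, and the 5 genes most like Matn4 and like Col2a1. Figures used matplotlib 3.10.9.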

Additional observations from a re-analysis of the deposited data

How the results depend on the processing

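Of the 30 probes called over the whole table, the count was 0 with values floored at background (951 at an unadjusted p under 0.05), 8 with an offset of 16, 84 with the replicate block and 49 with a mean-variance trend, and it ran from 0 to 91 with 1 array left out. The count of member probes called, 1 in the report, was 0 with the floor (4 unadjusted) and with an offset of 16 (5 unadjusted), and 2 with no filter, with the replicate block and with the trend, where ILMN_1215854 of Matn4 also passed (adjusted p of 0.043, 0.022 and 0.026, limma). It ran from 0 to 2 with 1 array left out. With values floored, ILMN_2729289 had an adjusted p of 0.40 at a log2 fold change of -1.87. Quantile and cyclic loess normalization, array weights and a filter on all 6 arrays kept the member count at 1. All 3 Matn4 probes, Matn1, both Col2a1 probes and Col9a2 kept a log2 fold change below 0 under every alternative that tested them. With 1 array left out, the sign of 3 small values turned: that of Col9a1 ran from -0.047 (without knockout replicate 2) to 0.090, with -0.0063 without wild-type replicate 1, that of Acan from -0.071 to 0.039 (without knockout replicate 1), and Matn1 relative to Col2a1 from -0.32 to 0.086 (also without knockout replicate 1). The cause was not tested. With the floor, Matn1 relative to Col2a1 was -1.08 (exact permutation p = 0.1). Of the gene lists, muscle calls numbered 1 with an offset of 16 and 0 with the floor (18 unadjusted in both), against 8 in the report, and the tendon and erythroid calls, 1 each, were 0 in both (5 and 6 unadjusted with the offset, 6 and 5 with the floor). Same-numbered samples are not shown to be paired. Their deviations correlated at 0.23, 0.17 and -0.074, and 2 of the 3 knockout samples correlated best with the wild-type sample of their own number. Probes under about 14.3 units limit what can be said of Matn2, Matn3, Col9a3 and Hapln1.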
